A study of Drosophila melanogaster with 3 samples.

Results

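The gene gus (gustavus, FBgn0026238) held the pair of highest peaks in the optimal peak list of a genome-wide map of CG18764 binding in Drosophila melanogaster embryos, 1 at each of its annotated start sites. It was chosen from the ranks of these peaks, so its ranks and signals are given as a description and were not tested. Peak summits were taken from the gus gene body extended by 10000 bp on each side, at 2R:5106990-5138321 on dm6, a window of 31332 bp. The window held 4 of the 3754 summits of the optimal list and 15 of the 30000 in the pooled relaxed list. Windows drawn the same way held 4 or more optimal summits at 6.14% of 13968 protein-coding genes, and since gus was chosen from this list, nothing is read from that share. The relaxed lists of replicates 1, 2 and 3 held 19, 13 and 13 summits in it.

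The product of CG18764 is a ZAD-domain zinc-finger protein. Its binding was mapped by chromatin immunoprecipitation and sequencing (ChIP-seq) with an antibody against GFP, in transgenic flies that stably carried CG18764 with a C-terminal GFP tag. The 3 samples are biological replicates of 1 group: whole embryos of mixed sex, 0 to 16 h old, from the same line. The labels give no promoter for the transgene and do not say whether the endogenous gene was intact. Since whole embryos were pooled, the cells in which gus was bound cannot be named. A control dataset named in the labels was not analysed here.

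The protein encoded by gus carries a SPRY domain and a SOCS box. SOCS-box proteins act as substrate adaptors of Cullin-RING ubiquitin ligases, which they join through Elongin B and Elongin C. In Drosophila, Gustavus is known for binding the RNA helicase Vasa and for its part in placing Vasa in the germ plasm of the oocyte.

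The gene lies on the minus strand of 2R at 5116990-5128321 and spans 11332 bp. Ensembl release 115 lists 7 gus transcripts, which start at only 2 positions. The distal start site, at 5128321, is used by 2 transcripts (gus-RH and gus-RM). The inner start site, at 5122247, is used by the other 5 (gus-RG, gus-RI, gus-RJ, gus-RK and gus-RL) and lies 6074 bp further along the direction of transcription. All 7 share 1 coding sequence of 837 nt, for 279 residues, so the annotated start sites set the 5′ UTR and not the protein. For the transcripts that begin at the distal site, the inner one lies in the first intron.

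Both start sites had a strong summit just upstream. A summit within 500 bp was found at 2 of 2 gus start sites, while 16.0% of all 19275 protein-coding start positions had one in the optimal list. The choice of gus used this contrast, so nothing is read from the difference. The distal peak (5128089-5128770) had its summit at 5128371, at −50 bp from the distal start site, where negative values are upstream. The inner peak (5122062-5122698) had its summit at 5122312, at −65 bp from the inner start site. In the optimal list the distal peak had a signal of 3644 and the inner one 2741. This signal is the authors' value per peak. It has no stated scale and was used only within a list. These values were 19.1 and 14.3 times the median of the optimal list.

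**Figure D1:**
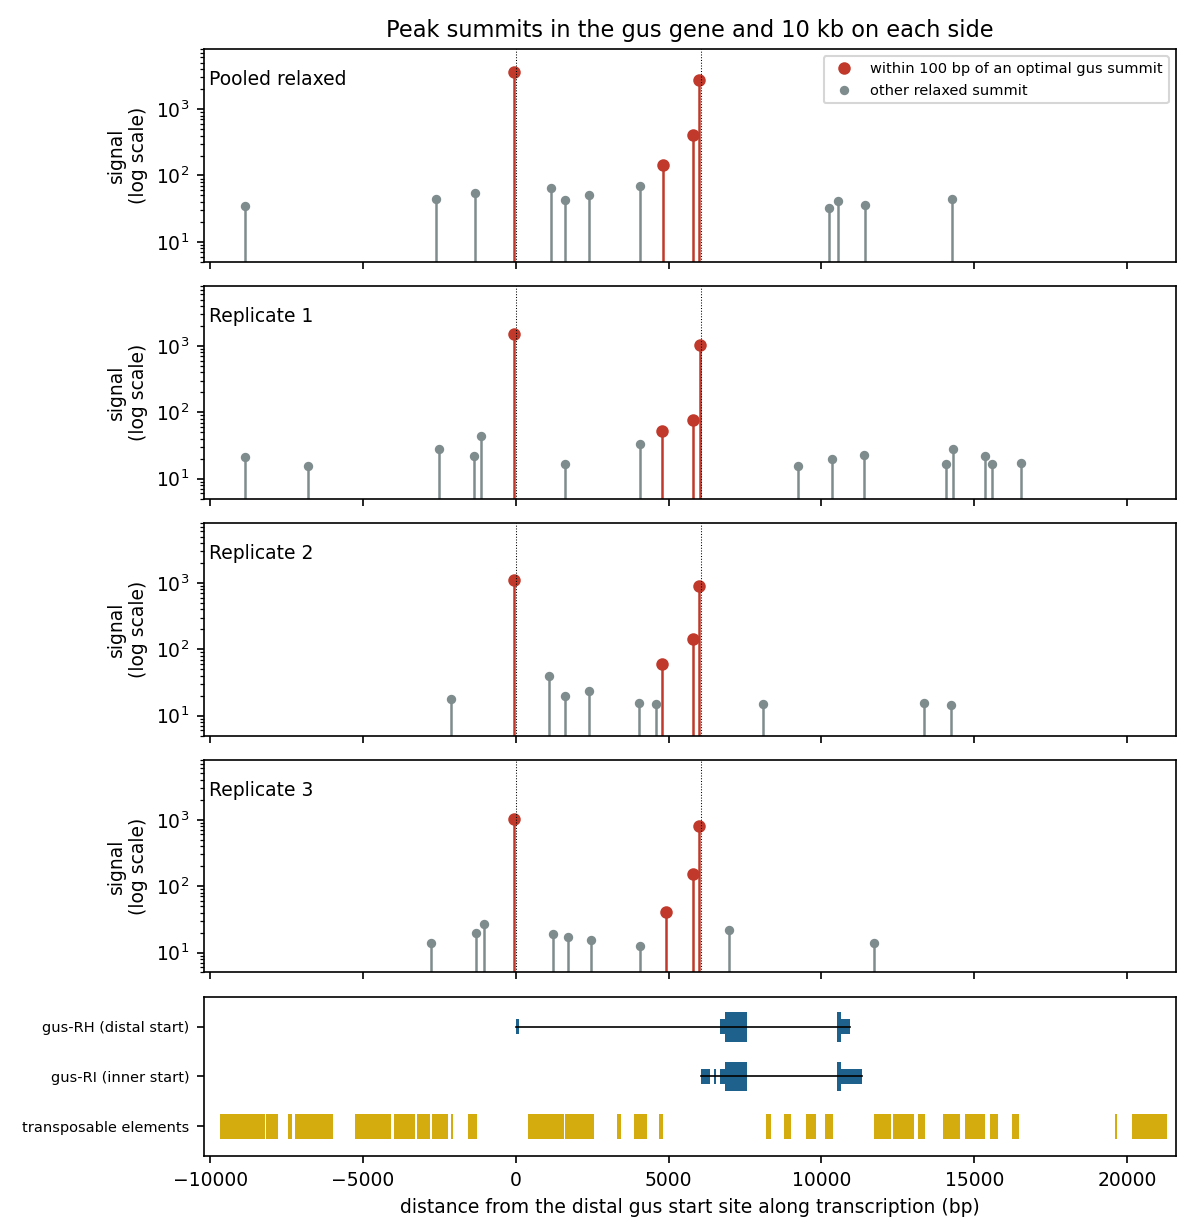
Signal of each summit (vertical axis, log scale, authors' units) against its distance from the distal gus start site (horizontal axis, bp along transcription) in the pooled relaxed list and the 3 replicates, with 1 transcript for each start site and the transposable elements below. Dotted lines mark the 2 start sites, each with 1 tall summit in every list. The remaining summits are much lower.

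In the replicates the distal peak was the highest of the whole list every time. Its signal was 1501, 1125 and 1014 in replicates 1, 2 and 3, which was 77.2, 50.4 and 57.98 times the median of that replicate's list. The inner peak had a signal of 1039, 912 and 795, or 53.4, 40.9 and 45.4 times the median. It ranked 2, 5 and 2, a mean rank of 3 ± 1.73 (SD, n = 3). The inner peak was thus below the distal one in each replicate, at 69.2%, 81.1% and 78.3% of its signal, a mean of 76.2% ± 6.21 (SD, n = 3).

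The lead of gus over the rest of the genome was uneven. The distal peak was 1.87, 1.14 and 1.32 times the highest peak outside gus in replicates 1, 2 and 3, a mean of 1.44 ± 0.383 (SD, n = 3). The inner peak was at 1.30, 0.926 and 1.03 times that peak. Its lead was therefore lost in replicate 2, where the peaks at CG3253, CG14100 and Ugalt, the UDP-galactose transporter gene, ranked 2, 3 and 4. In the optimal list the next peaks after gus were those at CG3253 (signal 2551), Ugalt (2463) and CG14100 (2419). The peak given here to CG3253 lies between divergent start sites, at −46 bp from CG3253 and −60 bp from CG4049, and in replicate 1 its summit lay at −53 bp from CG4049, the same distance as from CG3253.

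**Figure D2:**
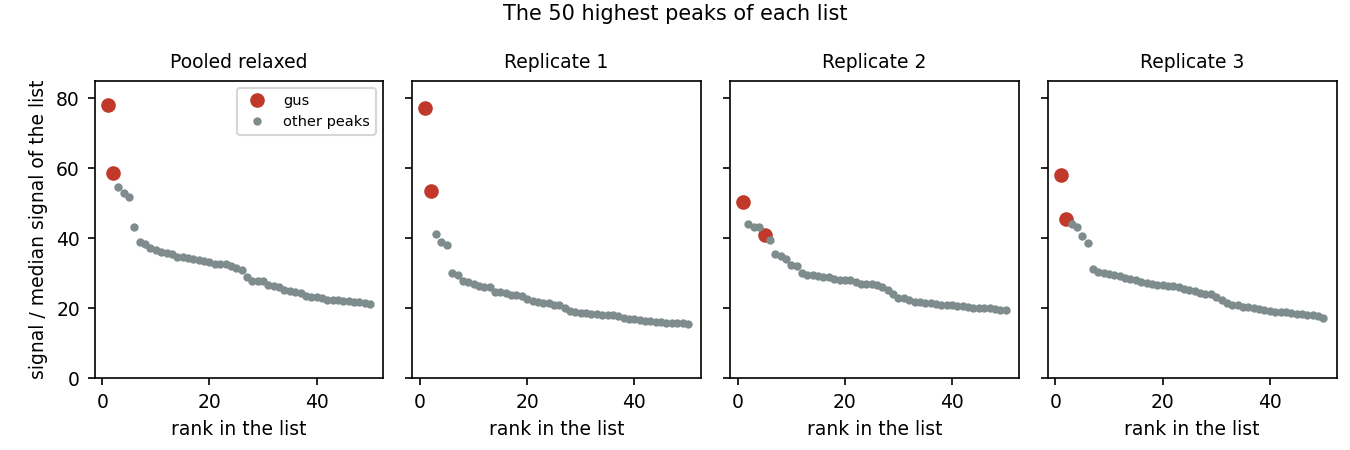
Signal of the 50 highest peaks divided by the median signal of the same list (vertical axis) against rank (horizontal axis), with gus in red and other peaks in grey. The distal gus peak stands highest in every panel, and the inner gus peak falls to rank 5 in replicate 2.

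Summit positions at the start sites were almost the same in every replicate. The distal summit lay at 5128372, 5128369 and 5128370 in replicates 1, 2 and 3, a range of 3 bp. The inner summit lay at 5122308, 5122314 and 5122313, a range of 6 bp. Across the 3233 optimal peaks with a summit within 100 bp in all 3 replicates, the median range was 44 bp. A range as small as or smaller than that of the distal peak was found for 1.14% of these, and for 3.12% in the case of the inner peak. The 3233 peaks are of all ranks, and the ranges were not compared with those of peaks of like signal. The distance between the gus summits was 6064, 6055 and 6057 bp, a mean of 6058.67 bp ± 4.73 (SD, n = 3), close to the 6074 bp between the start sites.

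The inner peak held another summit. It shared the interval 5122062-5122698 and lay at 5122515, 203 bp further upstream and at −268 bp from the inner start site. Only 13 of the 3741 intervals in the optimal list (0.348%) held 2 or more summits. This side summit ranked 460 in the optimal list, with a signal of 407. The replicates placed it at 5122515, 5122516 and 5122515, a range of 1 bp, which 0.309% of the 3233 peaks matched or undercut.

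Its height varied more than its position. The side summit had a signal of 77.5, 145 and 151 in replicates 1, 2 and 3 and ranked 1012, 665 and 276, a mean rank of 651 ± 368 (SD, n = 3). The main inner summit was 13.4, 6.29 and 5.26 times as high in the same replicates, so the side summit was lowest against it in replicate 1. The highest of its ranks over the lowest was 3.67, against a median of 1.71 over the 664 optimal peaks ranked 230 to 920, of which 5.12% had a ratio as large or larger.

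**Figure D3:**
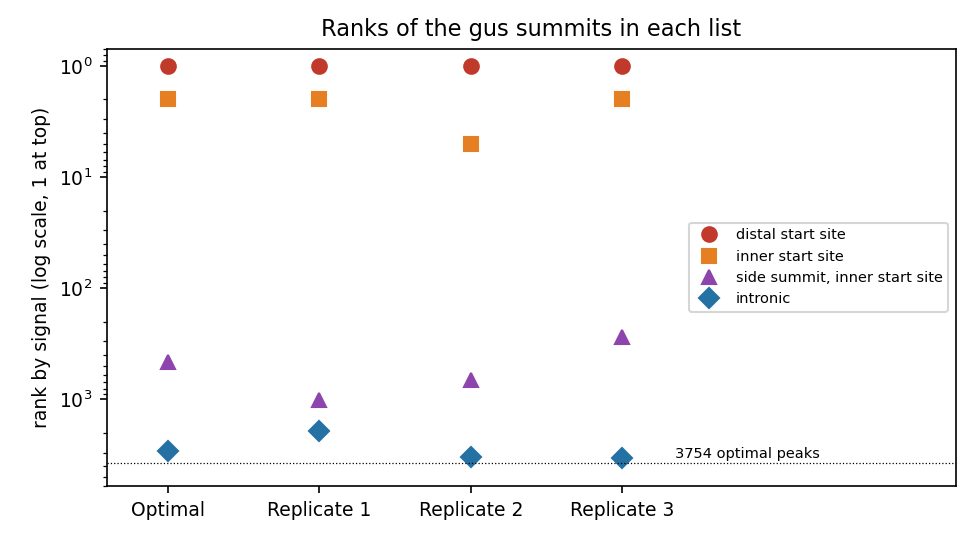
Rank by signal (vertical axis, log scale, rank 1 at the top) of the 4 optimal gus summits in the optimal list and in each replicate. The start-site summits stay within ranks 1 to 5, the side summit spans 276 to 1012, and the intronic summit lies between 1933 and 3342, inside the dotted line at 3754.

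The fourth optimal summit was intronic and weak. It lay at 5123509, at −1262 bp from the inner start site and 4812 bp downstream of the distal one, in an interval of 400 bp. Its optimal signal was 143 (rank 2925), below the median of the list at 0.748 times. Replicates 1, 2 and 3 gave it a signal of 51.95, 59.3 and 41.4 and ranked it 1933, 3304 and 3342. Its summits were at 5123521, 5123532 and 5123414, a range of 118 bp, and 96.97% of the 3233 peaks had a range that was as small or smaller. An INE-1 transposable element annotated at 5123515-5123650 lay 6 bp from the pooled summit and took up 136 bp, or 34%, of the interval. The summits of replicates 1 and 2 lay inside that element and that of replicate 3 outside it. Its part in the result was not tested.

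**Figure D4:**
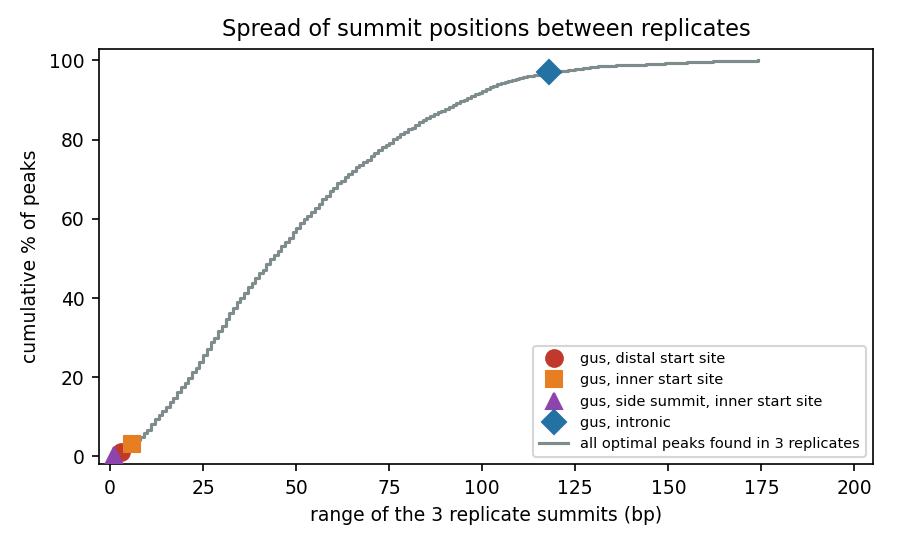
Cumulative percentage of peaks (vertical axis) by the range of their 3 replicate summits (horizontal axis, bp), for the 4 gus summits (symbols) and for the 3233 optimal peaks found in all 3 replicates (grey line). The start-site and side summits of gus lie at 1 to 6 bp and the intronic one at 118 bp, while the median of all peaks was 44 bp.

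The gus peaks were also wide. The distal interval measured 682 bp and the inner one 637 bp, in places 2 and 3 by width among the 3741 intervals, whose median was 400 bp and maximum 750 bp. In the replicates the distal peak was 471, 559 and 562 bp wide and the inner one 471, 512 and 550 bp, where the lists had median widths of 376, 404 and 400 bp. Such width was not particular to gus. The peak at CG3253 and CG4049, ranked 3 in the optimal list, was 625 bp wide there. It measured 362, 584 and 575 bp in replicates 1, 2 and 3, wider than both gus peaks in replicates 2 and 3. High rank did not always go with width, since the 25 highest optimal peaks had a median of 401 bp.

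The distal start site is divergent. The noncoding gene lncRNA:CR43256 (FBgn0262901, plus strand, 5127249-5129296) has a start site at 5128467, which is 146 bp upstream of the distal gus start site. The distal summit lay between them, at −50 bp from gus and −96 bp from the noncoding RNA, and peaks carry no strand. The summit therefore cannot be given to gus alone. The same gene has a further start site at 5127249, inside the first gus intron, with no optimal summit within 500 bp. A relaxed summit lay at −71 bp from it in the pooled list (rank 8621), at −18 bp in replicate 2 (5978) and at −159 bp in replicate 3 (13132), and none was found in replicate 1. The inner gus start site had no opposite-strand start within 1000 bp upstream, although its peak was the second highest of all.

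Outside these sites the locus was low. Of the 15 pooled relaxed summits, 11 ranked beyond 3754, between 8097 and 27340, with signals of 32.7 to 68.9. The distal summit was 52.9 times the highest of them. Of the 11, 4 lay between the start sites, 2 in the rest of the gene body, 3 upstream of the distal start site and 2 downstream of the gene. Within 100 bp, only 1 of the 11 had a summit in all 3 replicates. It lay 4050 bp downstream of the distal start site and ranked 3912, 26916 and 26293. A further 5 were in 2 replicates, 3 in 1 replicate and 2 in none.

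One summit outside the start-site peaks and the intronic peak also ranked within 3754 in a single replicate. It lay at −1126 bp from the distal start site in replicate 1, with rank 2585 and a signal of 43.5. Replicate 3 had a summit at −1055 bp with rank 6986, and replicate 2 listed none between −48 and −2130 bp.

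The surroundings of gus were rich in transposable elements. Annotated elements numbered 33 in the window, 17 of them INE-1, and covered 46.6% of its bases, against 5.93% of all assembled arms. Only 43 of 13968 protein-coding genes (0.308%) had a window with as much or more. That share is genome-wide. The window begins at 5106990 on an arm of 25286936 bp, and no comparison was made with other genes in this part of 2R. A trait of gus thus cannot be told from one of its region, here or for the sparse neighbouring summits and flank GC given below. Within 10000 bp of the distal and inner summits the elements covered 49.7% and 43.8%, while among the other 23 of the 25 highest optimal peaks the share was at most 7.23%, with a median of 0 over all 25. Both start-site intervals themselves held 0 bp of annotated element.

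Relaxed summits in the window were compared with the share of bases these elements cover. In the window 60% of the pooled summits (9 of 15) lay in an element, and 57.9%, 53.8% and 46.2% of those in replicates 1, 2 and 3, whereas over each whole list the share was 1.06%, 1.35%, 0.943% and 0.877% in the same order. The elements cover 46.6% of the bases in the window, a share that the replicate 3 value was close to and the others were above, on 13 to 19 summits a list. All 9 pooled summits in an element ranked beyond 3754. Each window share also counts the distal, inner and side summits, which lay outside elements in every list and so lower it. The distal and inner summits are those from which gus was chosen. How uniquely reads can be placed in these repeats was not tested.

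With 4 optimal summits in 31332 bp, the window held 12.8 per 100 kb, against 2.74 over all assembled arms. The window was drawn around the peaks from which gus was chosen, and 2 of the 4 summits share 1 interval. In the relaxed lists the density was 47.9 per 100 kb in the pooled list and 60.6, 41.5 and 41.5 in replicates 1, 2 and 3. Over all assembled arms it was 21.9 in each. The pooled value includes the same 4 optimal summits among its 15, and the arms are not limited to gene windows. Nothing is therefore read from these densities. The next optimal summits were far off, however. The nearest lay 328214 bp from the gene towards lower coordinates (rank 1134) and 222183 bp towards higher ones (rank 3183). The gus summits had only one another within 200000 bp, that is 3 other optimal summits each, where the median optimal peak had 15 and 1.81% of peaks had as few. Of the 674 optimal summits on 2R, only 4 lay below the gus window, against 118 of the 5055 pooled relaxed ones.

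Neighbouring protein-coding genes had promoter summits that were weak next to those at the gus start sites. Atf6, which encodes a transcription factor of the endoplasmic reticulum stress response, begins 16412 bp from the distal end of gus. Its pooled promoter summit, at −65 bp, ranked 4016, and replicates 1, 2 and 3 ranked theirs 3169, 5425 and 4349. CG3107 ends 21900 bp from the other end of gus. Its pooled promoter summit ranked 4940 at −7 bp, with ranks of 3031 in replicate 1 and 10180 in replicate 3 and none in replicate 2. Neither had an optimal promoter summit. Their pooled signals, 115 for Atf6 and 99.6 for CG3107, were above the pooled list median of 46.6.

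Separate peaks at more than 1 start site of a gene were rare. In the optimal list 64 of 13968 protein-coding genes (0.458%) had at least 2 promoter summits 1000 bp or more apart, and among the 1752 genes with start positions that far apart it was 62 (3.54%). Ordered by the rank of the weaker summit, gus came first with rank 2, while the median over the 64 genes was 2381. Next came dnc, the cAMP phosphodiesterase gene dunce (ranks 208 and 299, 39307 bp apart), and brwl (77 and 310, 1366 bp apart). The higher brwl summit also lay within 500 bp of a start site of a noncoding RNA gene. It cannot be given to brwl alone. Ptpmeg2, a protein tyrosine phosphatase gene, had ranks 214 and 412, CG14968 had 495 and 571, and Rtnl1, which encodes a reticulon of the endoplasmic reticulum, had 57 and 620. In the optimal list only gus had both summits among the 100 highest. The same order was headed by gus in each replicate alone, where the next gene's weaker summit ranked 265 (dnc), 283 (brwl) and 271 (brwl) in replicates 1, 2 and 3. Since gus was chosen as the gene of the 2 strongest peaks, its first place follows from that choice. The replicate lists come from the same data and are no independent support, so nothing is read from this place.

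**Figure D5:**
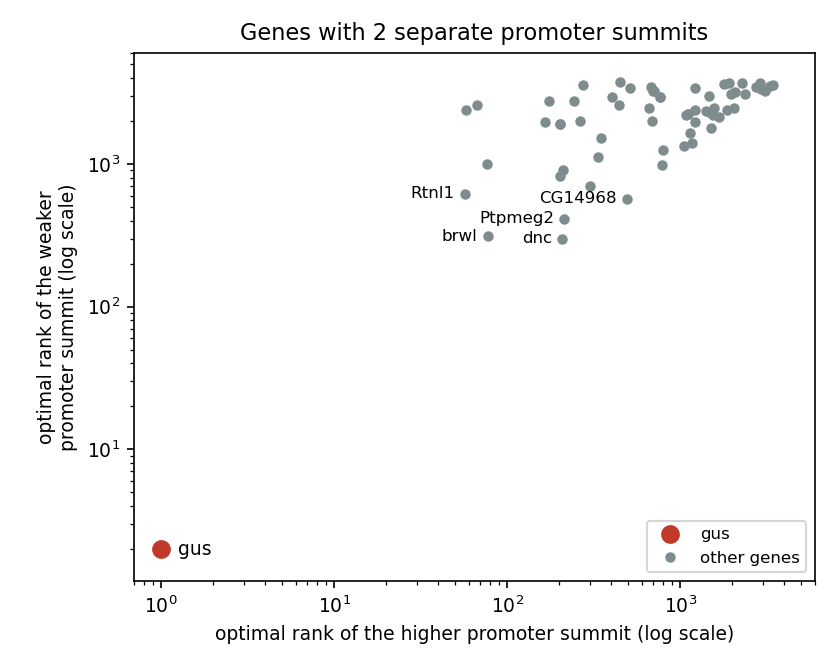
Optimal rank of the weaker promoter summit (vertical axis, log scale) against that of the higher one (horizontal axis, log scale) for the 64 protein-coding genes with 2 separate promoter summits. The point for gus lies at ranks 1 and 2, apart from the next genes, whose weaker summits rank 299 or lower in the list.

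Base composition at the gus summits was near that of other peaks, but the flanks of the 2 start-site summits were low in GC. GC content in the central 100 bp was 35% at the distal summit and 31% at the inner one, against a median of 33% over all optimal peaks (quartiles 27% and 39%). In the 100 bp windows centred 300 bp away on both sides, it was 26% and 28%, against a median of 44%. Only 0.773% and 1.49% of the optimal peaks had flanks with less GC. The centre was thus richer in GC than the flanks at both, which held for 21.3% of all optimal peaks and for 10 of the 25 highest. At the side summit the centre had 34% and the flanks 39.5%, and at the intronic summit 34% and 31%. Flanks with less GC than these were found at 27.5% and 4.13% of the optimal peaks.

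Named sequence motifs were mostly not found at the gus summits. The central 100 bp windows were searched on both strands for the DRE (TATCGATA), the BEAF-32 core (CGATA, which is part of the DRE), the GAGA repeat (GAGAG), the TATA box (TATAAA), the Zelda site (CAGGTAG), an M1BP motif (GGTCACAC) and a GATA site (AGATAA). Of the 4 gus windows, only that of the side summit held any, a TATAAA, which 21.6% of all optimal windows held. The DRE was in 2.21% of optimal windows, CGATA in 17.3%, GAGAG in 9.38%, CAGGTAG in 0.506%, GGTCACAC in 0.906% and AGATAA in 7.19%. The longest run of bases shared between the distal and inner windows, on either strand, was 8 bp. Over the 300 pairs among the 25 highest peaks the longest run was 5 to 13 bp with a median of 7, and 112 pairs shared 8 or more.

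Genes of the complexes and pathways in which Gustavus is known were taken as a list of 19 ubiquitin ligase, SOCS-box and germ plasm genes, of which 18 matched the annotation and nos did not. An optimal promoter summit was present at 5 of the 18, against 17.9% of all protein-coding genes. Among ligase components, EloB, which encodes Elongin B, ranked 1308 at −98 bp. The other 6, Cul5, Roc1a, Roc1b, Roc2, EloC and Vhl, had none. Among SOCS-box genes, Socs36E, a negative regulator of JAK/STAT signalling, ranked 3448, and Socs16D, Socs44A and SP555 had none. Socs36E ranked 1973, 4737 and 9532 in replicates 1, 2 and 3, and EloB 1118, 966 and 2203. The longer pooled relaxed list had a promoter summit at 15 of the 18, against 49.1% of all protein-coding genes.

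Fsn encodes an F-box and SPRY protein that competes with Gustavus for Vasa in Drosophila. Its promoter summit, at −14 bp, ranked 2224 in the optimal list and 2461, 2704 and 2516 in the replicates. That summit also lay within 500 bp of a start site of another protein-coding gene. It cannot be given to Fsn alone. Of the 6 matched germ plasm genes, tud, which encodes the Tudor scaffold, ranked 2859, and spn-E, an RNA helicase gene of the piRNA pathway, ranked 3730. Replicates 1, 2 and 3 ranked the tud summit 7960, 2790 and 2496 and that of spn-E 6532, 2797 and 5832, so both lay beyond 3754 in at least 1 replicate. The gene of the Gustavus target, vas, had no optimal promoter summit. Its pooled relaxed summit ranked 4187, with 3740, 3573 and 6056 in replicates 1, 2 and 3. No optimal promoter summit was found at osk, aub or vls.

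The dm3 lists gave the same pair. In each, 2 peaks on 2R among the 5 highest lay within 20 kb of one another. They ranked 1 and 2 in the optimal and pooled lists and in replicates 1 and 3, and 1 and 5 in replicate 2. Their spacing was 6059 bp in the optimal list and 6064, 6055 and 6057 bp in replicates 1, 2 and 3, equal to that of the gus summits on dm6. No coordinate was converted between the builds, so the match rests on spacing, rank and signal (3644 and 2741 in the optimal dm3 list).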

How the data were processed

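The authors deposited narrowPeak lists on dm6 and dm3: an optimal list after irreproducible discovery rate thresholding, a relaxed list of the pooled replicates and a relaxed list per replicate. The sources used here do not name the peak caller, the aligner or the thresholds, and read depth is unknown. The deposited signal is a score, without a stated scale. Peaks were ranked by it within each list. The deposited −log10 q was at its maximum in 3449 of 3754 optimal peaks and could not rank them. The deposited summit offset gave each summit, written 1-based. Gene and transposable element annotations came from Ensembl release 115 and sequence from the matching RefSeq release 6 assembly, both on dm6 coordinates. Summits within 100 bp were counted as the same peak, and summits within 500 bp of a start site as promoter summits. No test was made, because there is 1 group and gus was chosen from its ranks.

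Genes named are gus, genes of its window, the nearest protein-coding gene on each side, the genes nearest the 5 highest peaks, the 5 genes after gus in the order by their weaker promoter summit, and a partner list of 19 symbols. The gene, this list and the motifs were chosen with earlier results of these data known. The scripts were checked on simulated peaks. Python 3.11.15, numpy 2.4.6, pandas 2.3.3 and matplotlib 3.10.9 were used.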

Additional observations from a re-analysis of the deposited data

How the results depend on the processing

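Of 68 values recomputed under other settings, 64 moved by less than the spread between replicates, or, for counts, by less than 1.5 times. For the mean ranks and the mean signal ratio, leaving out 1 replicate cannot move the mean by more than that spread. The first place of gus follows from its choice under every setting. The count of 64 is therefore not read as a sign of stability. The window held 15 summits in the pooled relaxed list. With peak midpoints in place of summits, the distances to the start site were −108 bp for the distal peak and −133 bp for the inner peak and its side summit, which share 1 midpoint. With each replicate left out in turn, the inner peak's signal was 0.738 to 0.797 times that of the distal one, its mean rank was 2 to 3.5, and the mean rank of the side summit was 470.5 to 838.5. Within 50 bp the intronic peak was found in only 2 replicates. Ranking by the other deposited columns was not run, because the p column was left unset and the q column is tied at its maximum for 3449 optimal peaks, gus included. No paired analysis was possible because there is only 1 group. Depth is unknown, so no interval or limit of detection is given, and 3 replicates limit every mean.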
